A study of Mus musculus with 6 samples.

Results

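Replication-dependent histone genes encode the linker histone H1 and the core histones H2A, H2B, H3 and H4 that package newly copied DNA. Their transcripts were followed in RNA from pieces of mouse spleen. The genes were taken as those whose symbol starts with Hist1h, Hist2h, Hist3h or Hist4h and that had a summed count of at least 20 over the 6 libraries. The table of 31771 genes named 59 such genes, and 52 met the minimum. The rule does not use the difference between groups. The 7 genes below the minimum had summed counts of 3 to 15. Hist1h4b (21 counts) and Hist1h2ag (23 counts) lay just inside the minimum, and Hist1h2aj (15 counts) and Hist1h2an (8 counts) just outside it.

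The libraries came from 3 mutant and 3 control mice of strain C57BL/6. Mutant mice are labelled VEC-Cre, SB Transposase and onc2, and control mice WT. In the mutant genotype Cre recombinase is driven by the VE-cadherin promoter, and Sleeping Beauty is a transposase that moves the onc2 transposon to new genomic positions. VE-cadherin belongs to endothelium, and its promoter is also used in the embryonic endothelium from which blood cells arise, so that insertions can differ between cells and between animals. The labels give no age, litter or batch, and the series asked how the cells of the spleen differed between these animals.

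Libraries held 72902118 to 79258116 counts. The biological coefficient of variation, the spread between animals beyond counting error, was 73.1% among mutants and 17.1% among controls. Levels are in CPM, a gene's count scaled to a common library total. Xist, which the inactive X chromosome expresses, was at 1513 and 580 CPM in mutants 1 and 2 and at 0.586 CPM in mutant 3, against 0.423 to 0.663 CPM in controls, so the sex of the animals differed between the groups as well as the genotype. All 8 B-cell markers fell, with summed levels of 46.0 to 102 CPM in mutants and 5818 to 6532 CPM in controls, and 4 of 5 markers of splenic stroma fell, with 32.4 to 81.8 CPM in mutants and 608 to 774 CPM in controls. Of the T-cell markers 2 of 7 passed as lower (16.3 to 264 CPM in mutants and 586 to 739 CPM in controls), with a median log2 fold change of -3.99 over the list. Of the macrophage markers 0 of 6 passed (190 to 2718 CPM in mutants and 502 to 699 CPM in controls). A marker is counted as fallen or passed at an adjusted p under 0.05 by edgeR, by which 6.9% of all genes tested fell. In whole tissue, fewer cells of a type and less RNA per cell cannot be told apart.

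The 4 core histones form the octamer around which DNA is wound, and H1 binds where the DNA enters and leaves it. Most of these genes lie together in a large cluster, are transcribed mainly while DNA is being copied, and lack introns. Their mRNAs normally end in a conserved stem-loop bound by the stem-loop binding protein SLBP, in place of a poly-A tail. The libraries were made by poly-A selection. The counts therefore describe the part of each transcript pool that such a selection retained, and not the full amount of histone mRNA. Some histone genes also give polyadenylated forms that run past the stem-loop, chiefly in cells that are not dividing.

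The stem-loop is shown here because it marks the usual end of these transcripts, and because annotated transcripts differ in how far they run beyond it. The search asked for 6 paired stem bases that open with GG, close with CC and have a T opposite an A at the inner end, around a loop of 4 bases with a T at its start and a T after the next base. Run after the stop codon of GENCODE M21 transcripts, it found the stem-loop in 37 of the 52 genes, 24 to 57 bases past the stop codon (median 34). Only the transcript strand was searched. Capitals mark the bases of the stem, and sequences run 5′ to 3′ in DNA letters. 
18 genes of classes H1, H2A, H2B and H3: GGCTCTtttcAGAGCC
5 genes of classes H2B and H3, Hist1h2bk and Hist1h3c among them: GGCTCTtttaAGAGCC
Hist1h3g: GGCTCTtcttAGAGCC
Hist2h2ac: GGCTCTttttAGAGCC
7 genes of class H4: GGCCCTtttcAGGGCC
2 genes of class H4, Hist1h4i and Hist2h4: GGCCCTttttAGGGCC
2 genes of class H4, Hist1h4b and Hist1h4j: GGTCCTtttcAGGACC
Hist1h4a: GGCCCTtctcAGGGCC
The stem of the H4 genes thus had different bases from that of the other 4 classes, and the loop varied within each set. Among all other protein-coding genes of the annotation, 30 held the pattern anywhere in a transcript, not only after the stop codon (0.137%). The variant histone gene H2afx is among the 30, and annotated histone genes absent from the count table were not left out of that search. The annotated transcript ran at least 100 bases past the stem-loop in 20 of the histone genes and less in 17. No stem-loop was found in the annotated transcript of the remaining 15 genes, several of which are annotated only to the stop codon or a few bases beyond it; this describes the annotation and not the RNA.

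The start regions of 4 members are shown for the genes and classes that the results turn on: Hist1h1b, Hist1h2bk and Hist1h2bj, which rose, and Hist1h4i, the most abundant H4 transcript per length. Each stretch is the 120 bases before the start of transcription, from RefSeq promoters of build GRCm38.p6, on the gene's own strand. Capitals mark CCAAT, the letters bound by the factor NF-Y. They also mark TATAAA, as in the box that places the start of transcription. The octamer bound by the factor Oct-1, ATTTGCAT, and a box known from H1 genes, AAACACA, are in capitals as well. All were read on either strand, and none of these motifs overlaps another in the stretches shown.
Hist1h1b, chr13:21780626-21780745, minus strand: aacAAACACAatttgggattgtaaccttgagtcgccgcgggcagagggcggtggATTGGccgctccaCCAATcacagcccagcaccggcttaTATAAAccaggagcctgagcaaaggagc
Hist1h2bk, chr13:22035701-22035820, plus strand: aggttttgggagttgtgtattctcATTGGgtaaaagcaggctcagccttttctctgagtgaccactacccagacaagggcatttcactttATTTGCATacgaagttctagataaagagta
Hist1h2bj, chr13:22043078-22043197, plus strand: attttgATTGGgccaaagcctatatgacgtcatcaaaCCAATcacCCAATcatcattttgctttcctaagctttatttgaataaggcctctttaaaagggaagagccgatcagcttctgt
Hist1h4i, chr13:22041363-22041482, minus strand: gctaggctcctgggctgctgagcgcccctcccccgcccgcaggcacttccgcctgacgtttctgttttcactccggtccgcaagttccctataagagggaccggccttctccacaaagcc
The Hist1h4i stretch held none of the motifs. Promoters in the table span 250 bases before to 50 bases after the start, and 44 of the 52 genes were matched. CCAAT was present in 35 of the 44 (79.5%) and in 37.4% of all 32851 promoters. It was in all 32 matched H1, H2A, H2B and H3 promoters and in 3 of 12 H4 promoters. TATAAA was in 28 of 44 (63.6%), and in 13.6% of all promoters. The octamer was in 6 of 10 H2A and 3 of 10 H2B promoters and in 1.74% of all promoters, and AAACACA was in 3 of 4 H1 promoters and in 7.18% of all promoters. Promoters of H2A and H2B genes that start near each other on opposite strands can cover nearly the same stretch, as for Hist1h2ae and Hist1h2bg. The same site then counts for both genes, so these promoters are not all separate sequences. A match is a description of the letters and not a measured binding site.

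Transcripts of 7 histone genes rose in mutant spleens by edgeR, all 7 from the large Hist1 cluster on chromosome 13. Hist1 genes also made up 37 of the 45 histone genes tested. Of 45 genes with enough counts to be tested, 7 rose and 0 fell by the quasi-likelihood test of edgeR (adjusted p under 0.05), where 5.08% of all 19573 genes tested rose and 6.9% fell. The 7 were the linker histone genes Hist1h1a and Hist1h1b, the H2B genes Hist1h2bj, Hist1h2bk and Hist1h2bl, and the H3 genes Hist1h3c and Hist1h3g. The share of 50-base words found in no other gene's transcripts was 100% for Hist1h1a and Hist1h1b. It was 53.0% for Hist1h3c, 45.9% for Hist1h3g, 40.6% for Hist1h2bj, 25.8% for Hist1h2bk and 17.2% for Hist1h2bl. Where that share is low, counts of near-identical genes may not be separate measurements. At an unadjusted p under 0.05, 20 of the 45 were higher and 2 lower, against 16.2% and 15.0% of all genes. In 23 histone genes every mutant library lay above every control library, an arrangement found in 18.0% of all genes tested, and in 2 genes, Hist3h2a and Hist1h4m, every mutant library lay below, as in 22.6% of all genes. The fitted log2 fold change was positive in 36 and negative in 9, with a median of 1.57, against a median of 0.10 over all genes tested. The expression filter asks for a minimum level in 3 libraries, so a low gene could enter the test through the group in which it was higher, whichever that was.

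All 7 calls sat close to the threshold, with adjusted p-values of 0.0212 to 0.0490. Leaving out any 1 control left 0 calls by edgeR's quasi-likelihood test, with 12 to 17 members higher at an unadjusted p under 0.05. Calls over all genes also varied widely between fits with 1 library left out, as given under the processing. Shares over all genes are not printed for each of these fits. The loss of calls is therefore not read as particular to the histone genes. The same applies to such counts for the gene lists below. DESeq2 on all libraries called 19 members higher, all from Hist1, to which 44 of the 52 members belong. It called 1 lower, Hist3h2a. Over all genes DESeq2 called 10.3% higher and 11.1% lower.

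The summed level of all 52 genes was 293, 246 and 118 CPM in mutants 1, 2 and 3, against 129, 150 and 111 CPM in controls 1, 2 and 3. Mutants 1 and 2 were above every control, and mutant 3 lay within the range of the controls. The means were 219 ± 90.4 CPM in mutants and 130 ± 19.1 CPM in controls (SD, n = 3 each). The sum is carried by few genes: Hist1h1c, Hist1h2bc, Hist2h2be and Hist1h4i together made up 60.0% to 78.6% of it in mutants and 74.0% to 77.4% in controls. Most other histone genes were barely represented, and 36 of the 52 had a summed count under 500 over all libraries (median 282.5).

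**Figure D1:**
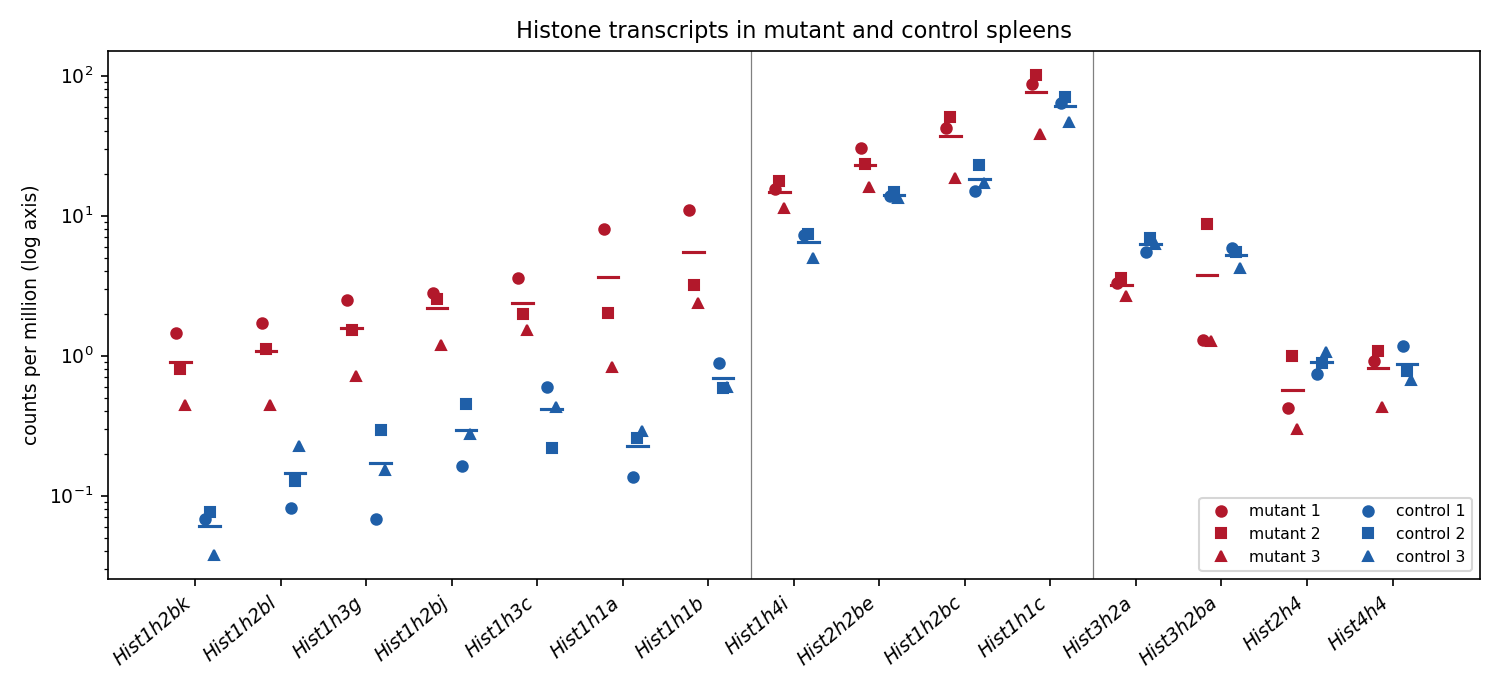
Levels of 15 histone genes in CPM on a log axis, with 1 symbol per library, mutants (red) left of controls (blue) and a bar at each group's mean. The 7 genes on the left rose, with every mutant above every control; the 4 in the middle carry most of the histone counts; of the 4 on the right, from other loci, Hist3h2a lay lower in every mutant and the other 3 overlapped.

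Linker histones. The class H1 comprised 5 genes, of which 2 rose by edgeR and 3 by DESeq2, with Hist1h1d as the third, and all 5 had positive fitted log2 fold changes, of 0.36 to 3.99 with a median of 2.99. Hist1h1a (ENSMUSG00000049539, GRCm38 chromosome 13, 23763666 to 23764406, plus strand) had 586, 149 and 64 counts in mutants 1, 2 and 3, against 10, 20 and 23 counts in controls 1, 2 and 3. Its libraries did not overlap, and mutant 1 stood far above the other mutants. The log2 fold change was 3.99 ± 0.96 (SE; adjusted p = 0.0490 by edgeR).
Hist1h1b (ENSMUSG00000058773, chromosome 13, 21779883 to 21780625, minus strand), whose start region is printed above, had 11.1, 3.19 and 2.37 CPM in mutants 1, 2 and 3, against 0.893, 0.590 and 0.593 CPM in the controls. Again mutant 1 was the highest and no mutant reached down to a control. Its log2 fold change was 2.99 ± 0.71 (adjusted p = 0.0467 by edgeR).
Hist1h1c, the most abundant histone transcript per length, did not pass. It had 87.5, 102 and 38.6 CPM in mutants 1, 2 and 3, against 63.4, 70.5 and 47.0 CPM in controls, so the groups overlapped and mutant 3 was below every control. Per kilobase of transcript its mean level over all libraries was 43.6 CPM, that of Hist1h1b 4.19 CPM and that of Hist1h1a 2.60 CPM. The log2 fold change of Hist1h1c was 0.36 ± 0.41 (adjusted p = 0.596 by edgeR).
Hist1h1d and Hist1h1e, which encode other somatic linker histones, had by far their highest level in mutant 1. Hist1h1d had 21.5, 2.78 and 3.30 CPM in mutants 1, 2 and 3, against 0.758, 1.40 and 0.921 CPM in controls, without overlap (log2 3.15 ± 0.93, adjusted p = 0.0783 by edgeR and 0.00194 by DESeq2). Hist1h1e had 16.4, 2.34 and 2.48 CPM in mutants, against 1.31, 2.39 and 1.85 CPM in controls, with overlap (log2 1.93 ± 0.86, adjusted p = 0.189 by edgeR). Exons of Hist1h1e overlap those of Hist1h2be on the same strand, so their reads cannot be fully separated.

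Histone H2B. The 13 H2B genes were all tested, and 3 rose by edgeR and 5 by DESeq2, each from the Hist1 cluster; the median log2 fold change of the class was 1.99. Hist1h2bk (ENSMUSG00000062727, chromosome 13, 22035870 to 22036345, plus strand) gave 106, 60 and 34 counts in mutants 1, 2 and 3, and 5, 6 and 3 counts in controls, which is 1.45, 0.807 and 0.443 CPM in mutants against 0.0677, 0.0770 and 0.0379 CPM in controls. Its lowest mutant stood well above its highest control, although the control level rests on single-digit counts. The log2 fold change was 3.86 ± 0.66 (adjusted p = 0.0212 by edgeR), the smallest adjusted p of the histone genes in that test.
Hist1h2bj (ENSMUSG00000069300, chromosome 13, 22043214 to 22043676, plus strand) had 2.78, 2.55 and 1.19 CPM in mutants, against 0.162, 0.449 and 0.278 CPM in controls (log2 2.89 ± 0.60, adjusted p = 0.0332 by edgeR). Here mutants 1 and 2 were nearly equal. Hist1h2bl (ENSMUSG00000094338, chromosome 13, 21715763 to 21716143, minus strand) had 1.70, 1.12 and 0.443 CPM in mutants, against 0.0812, 0.128 and 0.227 CPM in controls (log2 2.91 ± 0.69, adjusted p = 0.0471 by edgeR). Neither gene had overlapping groups.
The H2B transcripts that carry most of the H2B counts did not pass. Hist1h2bc had 42.6, 50.6 and 18.7 CPM in mutants, against 15.0 to 23.1 CPM in controls, with mutant 3 inside the control range (log2 1.05 ± 0.43, adjusted p = 0.160 by edgeR). Hist2h2be, from the Hist2 locus on chromosome 3, had 30.3, 23.3 and 16.1 CPM in mutants, against 13.8, 14.8 and 13.4 CPM in controls, without overlap (log2 0.74 ± 0.29, adjusted p = 0.143 by edgeR). The annotated transcripts of these 2 genes carry 3′ untranslated regions of 742 and 2192 bases with no stem-loop found in them.

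Histone H3. Of 10 H3 genes 9 were tested by edgeR and 2 rose (4 of 10 by DESeq2), with a class median of 1.57 on the log2 scale. Hist1h3c (ENSMUSG00000069310, chromosome 13, 23744973 to 23745602, minus strand) had 3.57, 1.99 and 1.52 CPM in mutants 1, 2 and 3, against 0.595, 0.218 and 0.429 CPM in controls (log2 2.52 ± 0.57, adjusted p = 0.0419 by edgeR). The groups did not overlap. Its stem-loop is the form printed above for 5 genes, Hist1h2bk among them.
Hist1h3g (ENSMUSG00000099517, chromosome 13, 23535422 to 23535951, plus strand) had 182, 113 and 55 counts in mutants, against 5, 23 and 12 counts in controls (log2 3.20 ± 0.76, adjusted p = 0.0469 by edgeR). Its form of the loop was found in no other histone gene listed here. Hist1h3a, next to Hist1h3c in level per length, had 2.95, 0.914 and 0.912 CPM in mutants, against 0.420, 0.911 and 0.492 CPM in controls, with mutants 2 and 3 barely above control 2 (log2 1.38 ± 0.65, adjusted p = 0.203 by edgeR). Summed over the class, H3 counts made up 6.24%, 3.20% and 5.03% of all histone counts in mutants 1, 2 and 3, against 2.48%, 2.45% and 2.71% in controls.

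Histone H4. Most H4 genes encode the same protein, and of 13 genes 12 were tested and 0 passed in either direction by edgeR. At an unadjusted p under 0.05, 4 were higher and 1 lower. DESeq2 tested all 13 and called 4 higher, namely Hist1h4f, Hist1h4i, Hist1h4j and Hist1h4n, and 0 lower. Hist1h4i, the most abundant of them, had 15.5, 17.7 and 11.4 CPM in mutants 1, 2 and 3, against 7.25, 7.35 and 4.95 CPM in controls. Every mutant was above every control, and here mutant 2 was the highest. The log2 fold change was 1.21 ± 0.34 (adjusted p = 0.0677 by edgeR and 0.00983 by DESeq2). Hist1h4h, the next most abundant per length, had 2.77, 1.18 and 0.886 CPM in mutants, against 0.853, 1.04 and 0.568 CPM in controls, with overlap (log2 0.97 ± 0.57, adjusted p = 0.291 by edgeR).
Hist1h4m went against most of its class, in which 9 tested genes had positive and 3 negative log2 fold changes. It had 2, 7 and 0 counts in mutants and 16, 23 and 20 counts in controls, and only 10.2% of its 50-base words are found in no other gene's transcripts (log2 -2.57 ± 1.01, adjusted p = 0.148 by edgeR). A count of 0 in mutant 3 allows up to 0.0391 CPM at 3 counts.

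Histone H2A. The H2A class had 11 genes, but 5 of them did not pass the expression filter, and 0 of the 6 tested passed by edgeR (2 higher and 1 lower at an unadjusted p under 0.05). DESeq2, run without that filter, called Hist1h2ab, Hist1h2ah and Hist1h2ak higher and Hist3h2a lower. Hist1h2ab had 54, 42 and 16 counts in mutants 1, 2 and 3, against 3, 9 and 4 counts in controls, without overlap (log2 2.86 ± 0.73, adjusted p = 0.0557 by edgeR). It was the member closest to the threshold of edgeR without passing. The most abundant H2A transcript per length, Hist3h2a, is described with its locus below.
In mouse, H2A and H2B genes often stand head to head with a shared start region, and 8 such pairs were among the histone genes, with gaps of 172 to 301 bases. The 3 H2B genes that rose by edgeR all have an H2A partner of this kind, and none of the 3 partners passed edgeR's expression filter: Hist1h2ah beside Hist1h2bk had 39 counts in all, Hist1h2ag beside Hist1h2bj had 23, and Hist1h2ai beside Hist1h2bl had 42. Hist1h2ah had 28, 6 and 5 counts in mutants and 0 in each control, where 0 allows up to 0.0406, 0.0385 and 0.0379 CPM (adjusted p = 0.00592 by DESeq2). Fewer than 10% of the 50-base words of Hist1h2ah and Hist1h2ai are unique to them (7.87% and 9.88%), and how reads shared between copies were assigned is not given in the sources used here.

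**Figure D2:**
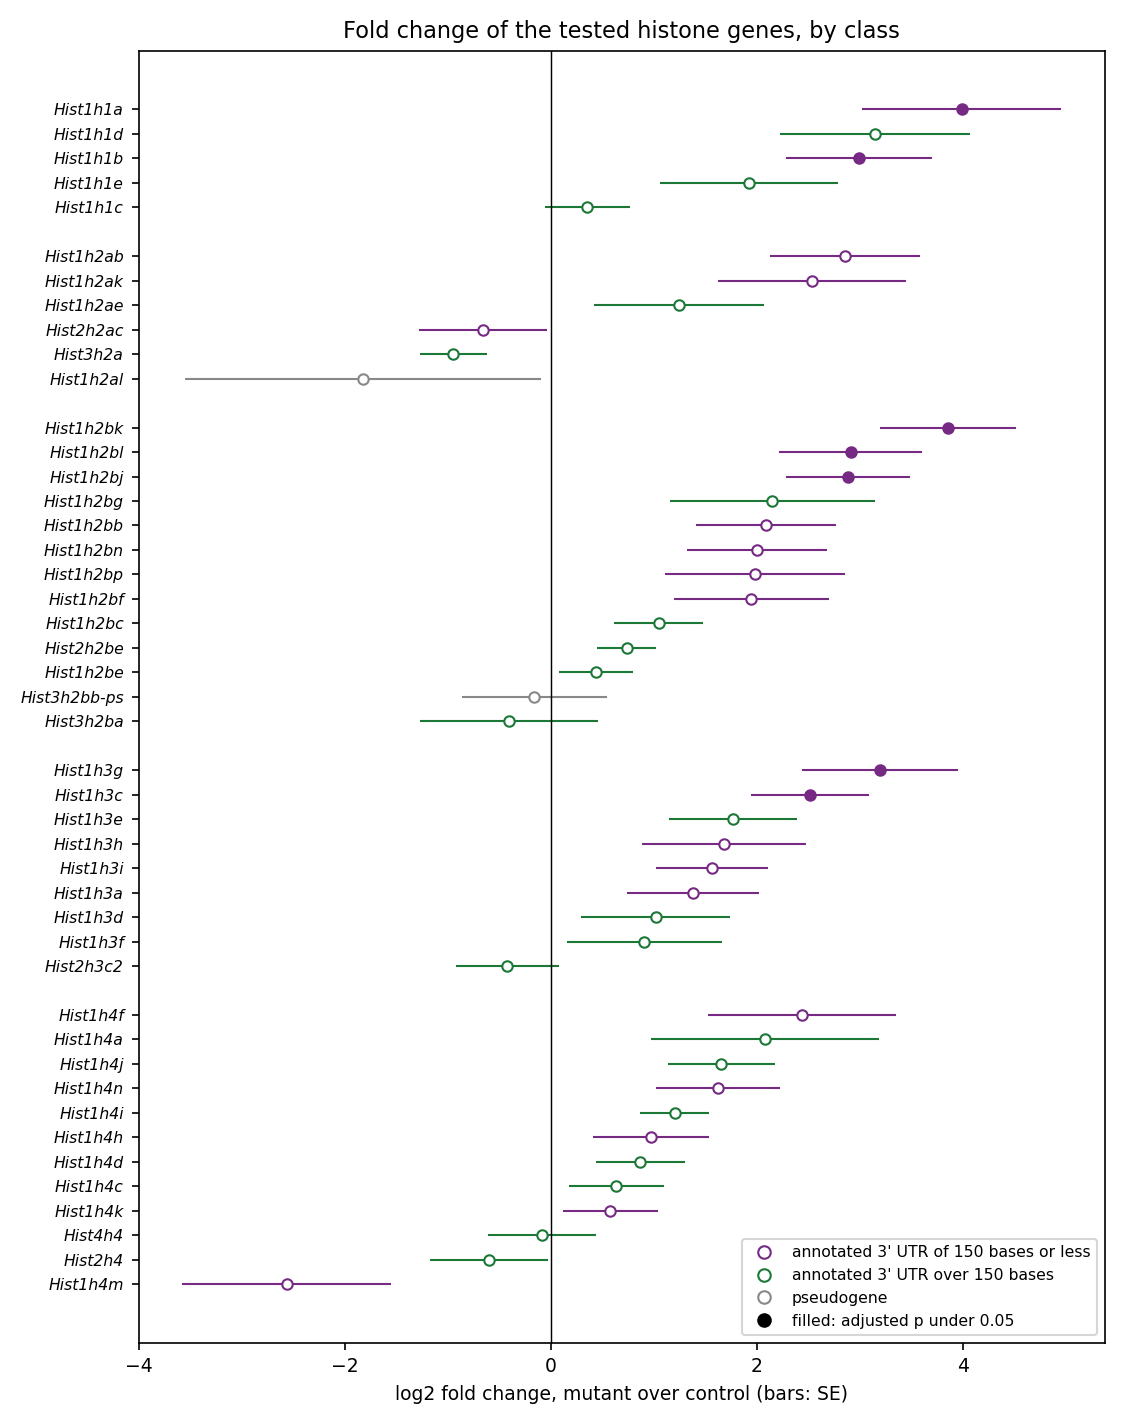
Fitted log2 fold change of mutants over controls for the 45 tested histone genes, ordered within H1, H2A, H2B, H3 and H4 from top to bottom, with bars for the SE, colour for the length of the annotated 3′ untranslated region and filled points for an adjusted p under 0.05 by edgeR. The filled points run between 2.52 and 3.99 and all have a 3′ untranslated region of 150 bases or less.

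By locus, 44 of the 52 genes are named Hist1 and lie on chromosome 13, all in the cluster except the pseudogene Hist1h2al, and 37 were tested. Of these 7 rose by edgeR, 35 had a positive and 2, Hist1h4m and Hist1h2al, a negative log2 fold change (median 1.77). The 8 genes of the Hist2, Hist3 and Hist4 loci on chromosomes 3, 11 and 6 had 0 calls by edgeR, 1 positive and 7 negative log2 fold changes, and a median of -0.41. DESeq2 called 1 of the 8, Hist3h2a, lower. The difference between loci was not itself tested. Among them, at an unadjusted p under 0.05, 1 was higher (Hist2h2be) and 1 lower (Hist3h2a).
Hist3h2a, an H2A gene on chromosome 11 (58954685 to 58956830, plus strand), had 3.32, 3.59 and 2.67 CPM in mutants 1, 2 and 3, against 5.51, 6.92 and 6.30 CPM in controls. Every mutant lay below every control, with little spread in either group (log2 -0.95 ± 0.33, adjusted p = 0.110 by edgeR and 0.0154 by DESeq2). Its neighbour Hist3h2ba, an H2B gene, had 1.29, 8.78 and 1.28 CPM in mutants, against 5.90, 5.54 and 4.24 CPM in controls, so mutants 1 and 3 were lower than every control and mutant 2 higher (log2 -0.40 ± 0.86, adjusted p = 0.782 by edgeR). Exons of Hist3h2a overlap those of Trim17 on the same strand.
The remaining genes outside Hist1 were low and overlapped between groups. Hist2h4 had 0.425, 0.995 and 0.300 CPM in mutants, against 0.744, 0.885 and 1.06 CPM in controls (log2 -0.60 ± 0.58, adjusted p = 0.519 by edgeR). Hist4h4, the single gene of its locus, had 0.919, 1.09 and 0.430 CPM in mutants, against 1.18, 0.783 and 0.669 CPM in controls (log2 -0.09 ± 0.52, adjusted p = 0.925 by edgeR). Hist2h2ac, Hist2h3c2 and the pseudogene Hist3h2bb-ps had log2 fold changes of -0.66, -0.42 and -0.16 (adjusted p = 0.508, 0.604 and 0.897 by edgeR), each with 0.525 CPM or less on average in either group.

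The 7 genes that rose by edgeR have short annotated 3′ ends, of 0 to 114 bases past the stop codon. Of these, Hist1h1b and Hist1h2bl are annotated only to the stop codon. The short group also holds other genes annotated in that way, and where their RNAs end is not known here. Genes were divided at 150 annotated bases of 3′ untranslated region, a value chosen after the data were seen. Of 22 tested genes at or under it 7 rose by edgeR, with a median log2 fold change of 2.04, and of 21 tested genes over it 0 rose, with a median of 0.91. Among Hist1 genes the short group had 7 of 21 calls by edgeR and a median of 2.09, and the long group 0 of 15 calls and a median of 1.21, with all 15 positive. The absence of long genes among the calls depended on the tool and the libraries. DESeq2 called 15 of 27 short and 4 of 16 long Hist1 genes higher, the long ones being Hist1h1d, Hist1h3e, Hist1h4i and Hist1h4j. In edgeR the long genes higher were Hist1h1d without mutant 1, Hist1h1d and Hist1h3e without mutant 2, and Hist1h2bc and Hist2h2be without mutant 3. The summed level of the short group was 50.2, 23.4 and 13.5 CPM in mutants 1, 2 and 3, against 6.10, 7.47 and 6.09 CPM in controls, so every mutant exceeded every control. For the long group it was 242, 222 and 105 CPM in mutants, against 121, 141 and 104 CPM in controls, with mutant 3 inside the control range. The short group therefore took 17.1%, 9.54% and 11.4% of histone counts in the mutants and 4.75%, 4.99% and 5.47% in the controls. The difference between the 2 length groups was not tested, and they differ in other measured ways: a median of 36.9% of the 50-base words are unique in short genes and 75.3% in long ones. Among the 10 tested genes with at least 80% unique words, 2 rose by edgeR (Hist1h1a and Hist1h1b) and the median was 0.69.

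**Figure D3:**
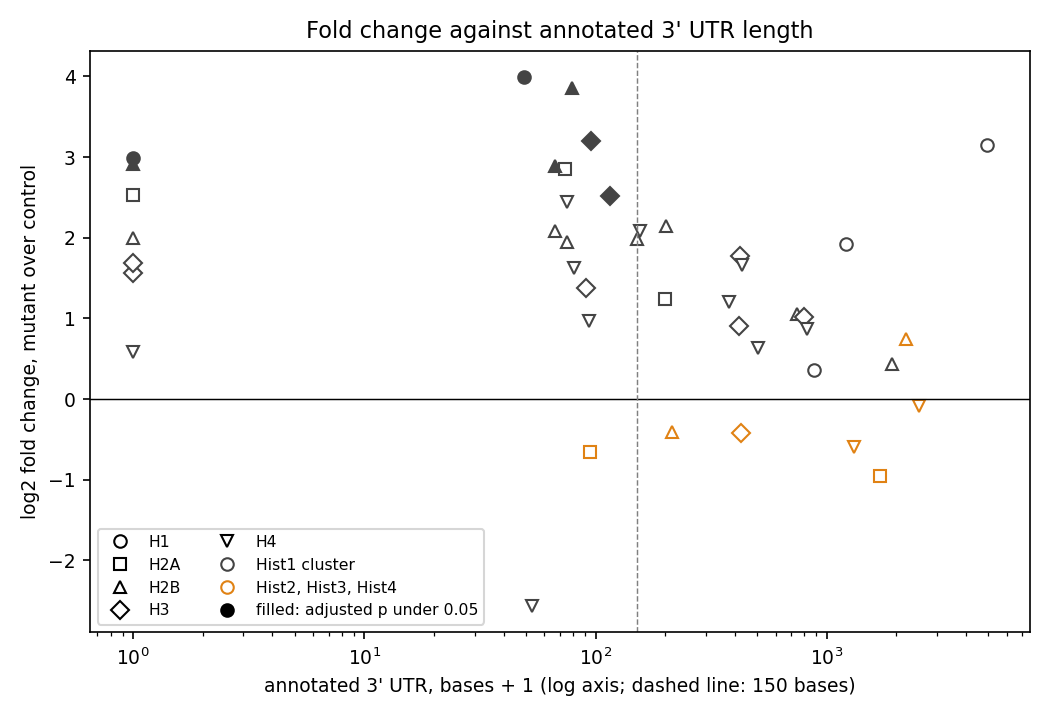
Fitted log2 fold change of mutants over controls against the annotated length of the 3′ untranslated region plus 1 base, on a log axis, for the 43 tested histone genes that are not pseudogenes; shapes give the class, orange the genes outside Hist1, filled symbols an adjusted p under 0.05 by edgeR and the dashed line 150 bases. Filled symbols lie left of the line, and 6 of the 7 orange symbols drawn lie below 0.

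The mutants differed from each other in most histone genes. Among the mutants, mutant 1 had the highest level in 39 of the 52 genes, mutant 2 in 12 and mutant 3 in 1, and mutant 3 was the lowest, or tied for it, in 43. Taken as the median over the 45 tested genes of log2 CPM minus the mean of the controls, the histone genes stood at 2.12 in mutant 1, 1.39 in mutant 2 and 0.50 in mutant 3, and between -0.13 and 0.22 in the controls. Hist1 genes with short annotated 3′ ends stood at 2.79, 2.16 and 1.28 in mutants 1, 2 and 3. Hist1 genes with long annotated ones stood at 1.98, 1.28 and 0.52. The genes outside Hist1 stood at -0.20, 0.29 and -1.33. Mutant 3 was thus the lowest mutant in each of these medians.
Mutant 3 shares the sex of the controls, judged by Xist and by the Y-linked gene Ddx3y, which was at 60.4 CPM in mutant 3 and at 55.0 to 62.7 CPM in controls. Each of the 7 genes that rose was higher in mutant 3 than in every control, and Hist3h2a was lower. Those genes were picked from values that included mutant 3, so this describes them and is no test of sex. The part of sex in the histone levels was not tested. An edgeR fit of mutant 3 against the controls takes its spread from the controls alone, although mutants spread far more than controls. It called 25.7% of all genes higher and 26.9% lower, and its calls are not read as results about the histone genes.

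**Figure D4:**
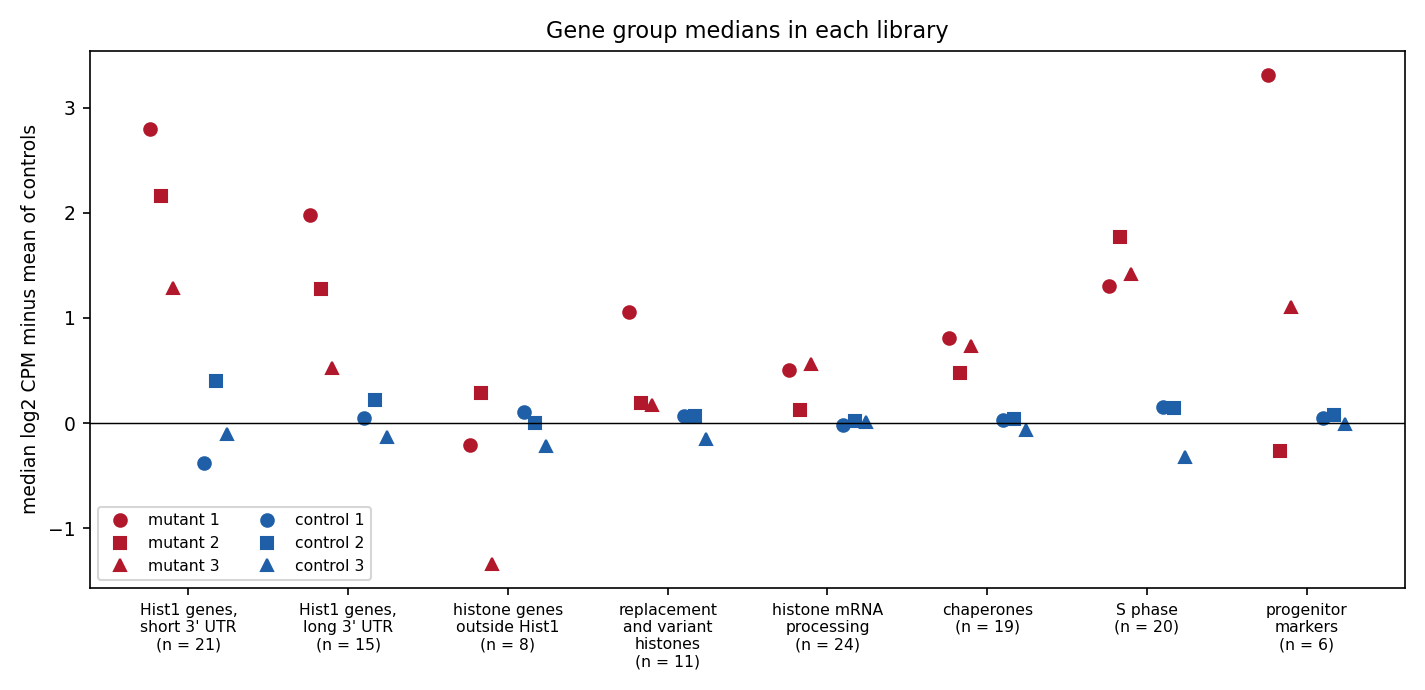
Median over each gene group of log2 CPM minus the mean of the controls, with 1 symbol per library and mutants (red) left of controls (blue). Mutant 1 is the highest mutant and mutant 3 the lowest for both sets of Hist1 genes, whereas mutant 2 is the highest for S phase genes and the lowest for progenitor markers.

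Genes of S phase, the phase of DNA copying, did not follow the same order. Of 20 such genes 14 rose by edgeR, where 5.08% of all genes tested rose, and leaving out control 1, 2 or 3 left 0, 0 and 1 gene of the list higher. Among the 14 were the polymerase gene Pola1 (log2 1.94 ± 0.19, adjusted p = 0.00598 by edgeR), the replicative helicase gene Mcm6 (1.77 ± 0.21, adjusted p = 0.00909) and the thymidylate synthase gene Tyms (2.21 ± 0.26, adjusted p = 0.00944). The median deviation of the list from the controls stood at 1.30, 1.77 and 1.42 in the 3 mutants in that order, so mutant 3 was not below mutant 1. Markers of haematopoietic progenitors stood at 3.31, -0.26 and 1.11 in mutants 1, 2 and 3, with summed levels of 1250, 104 and 400 CPM in mutants against 145 to 153 CPM in controls, and 0 of 6 passed by edgeR. Erythroid markers stood at -0.21, 2.49 and 1.53 in the mutants, with summed levels of 848 to 7141 CPM in mutants and 1459 to 2620 CPM in controls, and 1 of 8 rose. Neutrophil markers stood at -0.78, 3.31 and 2.86, with summed levels of 544 to 1867 CPM in mutants and 174 to 290 CPM in controls, and 3 of 8 rose. None of these marker lists had a gene at 0 in all mutants. The part of proliferation and of these cell types in the histone levels was not tested.
RNAs without a poly-A tail were set beside the histone genes. A set of 8 RNAs that carry no poly-A tail, such as Rn7sk and Rpph1, was chosen after the data were seen. Their summed level was 6.57, 2.27 and 9.05 CPM in mutants 1, 2 and 3, against 3.46, 3.81 and 3.96 CPM in controls. Mutants 1 and 3 lay above the controls and mutant 2 below. Of the 5 that could be tested 0 passed by edgeR, and Rn7sk, the RNA of a complex that restrains transcription elongation, had 3.53, 1.32 and 6.57 CPM in mutants against 1.15, 1.66 and 2.23 CPM in controls (log2 1.16 ± 0.62, adjusted p = 0.252). As the median of log2 CPM minus the mean of the controls, the 5 tested RNAs stood at 1.17, -0.20 and 0.06 in mutants 1, 2 and 3. By that measure mutant 1 was the highest mutant, as in the histone genes, whereas by the summed level mutant 3 was. Mutant 2 was the lowest mutant by both measures. The part of these RNAs in the histone values was not tested.

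Among 24 tested genes that serve the transcription and processing of histone mRNA, 2 rose and 1 fell by edgeR (median log2 fold change 0.44, where all genes had 0.10). These counts are near the shares over all genes, 5.08% higher and 6.9% lower, and leaving out any 1 control left 0 in either direction. Npat, the coactivator of histone gene transcription that cyclin E and its kinase act on, had 34.5, 26.9 and 39.0 CPM in mutants 1, 2 and 3, against 16.6, 17.6 and 18.9 CPM in controls (log2 0.92 ± 0.19, adjusted p = 0.0314 by edgeR). Every mutant was above every control. Eri1, an exonuclease that trims the histone mRNA end, had 83.2, 75.3 and 77.9 CPM in mutants, against 48.9 to 49.1 CPM in controls, and these were among the tightest groups listed (log2 0.70 ± 0.14, adjusted p = 0.0304 by edgeR). Pou2f1, which encodes the octamer-binding factor Oct-1, had 28.7, 20.5 and 28.2 CPM in mutants, against 46.8, 47.7 and 50.8 CPM in controls, and fell (log2 -0.90 ± 0.18, adjusted p = 0.0281 by edgeR). Oct-1 is found in many tissues, and B cells, whose markers fell here, hold a related factor as well.
Slbp, the gene of the stem-loop binding protein, had 78.3, 145 and 119 CPM in mutants, against 71.2, 69.1 and 57.3 CPM in controls. All mutants were above the controls, with mutant 2 the highest, but the gene did not pass (log2 0.81 ± 0.29, adjusted p = 0.116 by edgeR).

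Histone chaperones, which carry histones to DNA, included 7 genes that rose and 0 that fell by edgeR among 19 tested (median log2 fold change 0.50), where 5.08% of all genes rose and 6.9% fell. Leaving out any 1 control left 0 calls. Chaf1b, a subunit of the chromatin assembly factor that deposits H3 and H4 behind the replication fork, had 100, 71.5 and 126 CPM in mutants 1, 2 and 3, against 20.8, 21.5 and 15.0 CPM in controls (log2 2.37 ± 0.27, adjusted p = 0.00841 by edgeR). Its partner subunit Chaf1a rose by a log2 fold change of 1.89 ± 0.29 (adjusted p = 0.0167), and Hjurp, the chaperone of the centromeric H3 variant, by 1.43 ± 0.23 (adjusted p = 0.0187). The other risers were Asf1a, Asf1b, Nasp and Hat1. The median deviation of this list was 0.81, 0.48 and 0.73 in mutants 1, 2 and 3, so mutant 3 lay between the other mutants.

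Histone variants that are made outside S phase or replace the copying-coupled forms have polyadenylated mRNAs. Their summed level was 2166 to 4457 CPM in mutants and 1717 to 1937 CPM in controls. Of 14 such genes 11 were tested, and 4 rose and 0 fell by edgeR (median log2 fold change 0.58), where 5.08% of all genes rose and 6.9% fell. Leaving out any 1 control left 0 calls here too. H2afz, which encodes the H2A variant at many promoters, had 453, 292 and 327 CPM in mutants, against 161, 162 and 146 CPM in controls (log2 1.20 ± 0.21, adjusted p = 0.0234 by edgeR). Cenpa, the H3 variant of centromeres, had 225, 162 and 140 CPM in mutants, against 73.6, 74.2 and 59.1 CPM in controls (log2 1.36 ± 0.24, adjusted p = 0.0234 by edgeR). Both were higher in every mutant than in any control.
H1f0, a linker histone known from differentiating cells, had 489, 112 and 254 CPM in mutants, against 49.2, 42.4 and 39.2 CPM in controls (log2 2.69 ± 0.52, adjusted p = 0.0280 by edgeR). H2afx, the H2A variant that is phosphorylated at DNA breaks, had 263, 175 and 159 CPM in mutants, against 98.3, 90.5 and 60.2 CPM in controls (log2 1.26 ± 0.30, adjusted p = 0.0466 by edgeR). H2afx lies on chromosome 9 and has the histone stem-loop too, with 822 annotated bases after it; capitals again mark the stem.
H2afx: GGCCCTtttaAGGGCC
It joins the H4 stem to a loop printed above for H2B and H3 genes. The genes H3f3a and H3f3b, which encode the H3 variant used outside DNA copying, did not pass. H3f3a had 170, 201 and 179 CPM in mutants, against 119, 124 and 128 CPM in controls, without overlap (log2 0.58 ± 0.17, adjusted p = 0.0726 by edgeR), and H3f3b had 1904, 964 and 806 CPM in mutants, against 905, 987 and 823 CPM in controls, with overlap (log2 0.44 ± 0.37, adjusted p = 0.456 by edgeR).

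**Figure D5:**
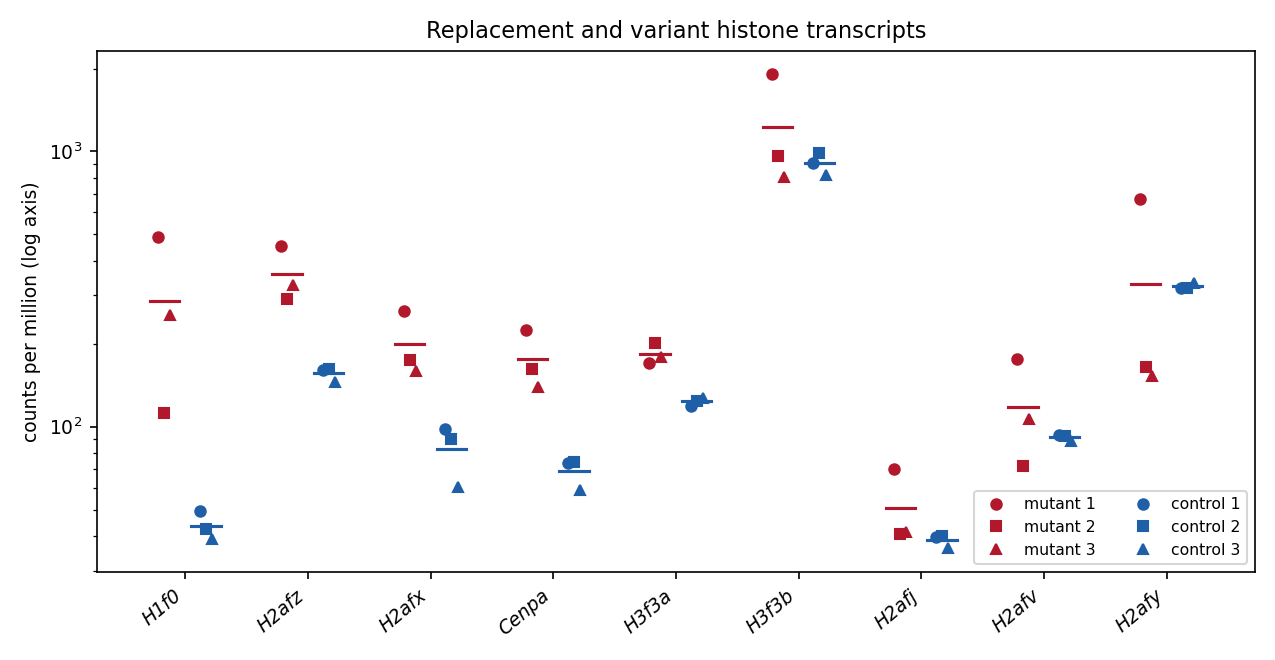
Levels of 9 replacement and variant histone genes in CPM on a log axis, with 1 symbol per library, mutants (red) left of controls (blue) and a bar at each group's mean. H1f0, H2afz, H2afx, Cenpa, H3f3a and H2afj show no overlap between groups, and mutant 1 is the highest library for most of the genes drawn.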

How the data were processed

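Bulk RNA-seq of spleen pieces from 3 mutant and 3 control mice was used. Per the labels' protocols, libraries were made with a stranded poly-A selection kit from total RNA. The authors deposited whole-number counts per Ensembl gene. The submitters' processing notes name STAR 2.5.3a, limma and the builds mm10 and GRCm38 but no role for any of them. Annotation release, strand setting, filters and the treatment of reads with several matches: not given in the sources used here. Counts of overlapping, antisense and near-identical histone genes are therefore uncertain. Of the 52 histone genes, 4 share exon bases with another gene on the same strand and 12 on the other, and a median of 51.8% of their 50-base words occur in no other gene's transcripts.

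Of 31771 identifiers 31669 matched a symbol. The annotation names 70 genes of the rule, of which 59 were named in the table used here and 52 met the count minimum. Groups follow the genotype label, and replicate numbers, given in accession order, only name animals. Nothing says how the animals relate, so p-values measure the spread between these samples. edgeR 4.0.16 (R 4.3.3) was run with TMM factors, filtering by group and robust quasi-likelihood fits, with Benjamini-Hochberg adjustment over all 19573 genes at 0.05. The SE is the absolute log2 fold change over the square root of F. CPM use deposited totals without TMM factors; deviations use TMM factors and a prior count of 2. The 7 histone genes that edgeR's filter left out had 21 to 61 counts in all. Levels below 3 counts are limited by counting error. Alternatives were DESeq2 1.42.0, limma-voom (limma 3.58.1) in 3 forms, other scalings and filters, left-out libraries and subsets of genes. Simulated counts with known changes, drawn with the same spread in both groups, were used to test the procedure. They do not show how it performs where mutants spread by 73.1% and controls by 17.1%.

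The genes, lists and tests were chosen with earlier results of these data known. Named are the 8 histone genes with the smallest p, the most abundant per length and the next of each class, all tested genes outside Hist1 and those at the count minimum. Of the other lists, the 3 with the smallest p are named, with Slbp, Npat, H2afz, H2afx, H3f3a, H3f3b and H1f0. Hist1h1d, Hist1h1e, Hist1h4m, Hist1h2ah, Hist1h2ai, Hist1h2al, Rn7sk and the further genes named only by symbol were chosen after their values were seen. Stem-loops and coordinates come from GENCODE M21 transcripts (GRCm38).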

Additional observations from a re-analysis of the deposited data

How the results depend on the processing

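The 7 histone genes that rose all passed under RLE factors, no scaling factors and DESeq2, 6 of them with a variance for each group in limma-voom or with haemoglobin and immunoglobulin genes left out. Upper-quartile factors gave 3 histone genes higher, limma-voom 4, limma-voom with sample weights 2, no expression filter 4, a minimum of 1 CPM in 3 libraries 3, and the restriction to at least 80% unique words 2 with a median log2 fold change of 0.69; fewer genes were tested in the last 2. DESeq2 gave 19 higher and 1 lower (Hist3h2a), with 2444 and 2640 of all genes. Sample weights gave 1842 of all genes higher. Counts over all genes are not printed for the other scalings and filters, so their histone counts have no background share here. With a variance for each group, the genes higher were 2 for S phase, 2 for chaperones, 0 for processing and 1 for variants, and 0 processing genes were lower. Processing genes higher were 1 under upper-quartile factors and 0 without a filter, which also gave 0 lower. Mutant 3 against the controls, a fit whose spread comes from the controls alone (17.1%, where mutants spread by 73.1%) and which therefore tests nothing about mutants as a group, gave 6 histone genes lower, a histone median of 0.45, 15 chaperones higher and 1 lower, 16 processing genes higher, 3 variants lower, and 5602 of all genes higher and 5864 lower. The cause of these changes was not tested. In the fit of mutant 3, histone genes went in both directions. Positive log2 fold changes included Hist1h1a (1.83), Hist1h1b (1.73), Hist1h1d (1.64), Hist1h2bj (1.95), Hist1h2bk (2.79), Hist1h3c (1.84) and Hist1h4i (0.76). Negative ones included Hist3h2a (-1.27), Hist2h4 (-1.61), Hist3h2ba (-2.08) and Hist2h2ac (-2.18). Hist1h4m (-7.31) and Hist1h2al (-9.48), with 0 counts in mutant 3, were negative too. Only members without exon overlap, an alternative chosen after the data were seen, gave 7 higher and a median of 1.62.

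With each library left out in turn, the histone genes higher ranged over 0 to 10 and those lower over 0 to 3, and their median over 0.93 to 1.90. Without control 1, 2 or 3 the counts were 0, 0 and 0 histone genes by edgeR (13, 17 and 12 higher at an unadjusted p under 0.05). Without mutant 1, 6 were higher, 5 of them among the 7, and Hist1h2al was lower; without mutant 2, 9 were higher and Hist1h4m, Hist3h2a and Hist3h2ba lower; without mutant 3, 10 were higher. All genes higher ranged over 4 to 2794 and lower over 119 to 3137, S phase genes higher over 0 to 17, chaperones higher over 0 to 9, processing genes higher over 0 to 12 and lower over 0 to 1, and variants higher over 0 to 5 and lower over 0 to 1. For the 38 tested genes named by rule, 514 of the results under an alternative stayed on their side of the threshold, 99 lost a call and 21 gained one, and 0 changed direction while called. No paired analysis was possible because the labels give no replicate numbers shared by the groups. Depth limits the low genes: 36 of the 52 had under 500 counts in all.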

Other observations

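Hist1h2al, a processed pseudogene of class H2A on chromosome 13 (51202727 to 51203065, minus strand) that lies apart from the Hist1 cluster, had 72 counts in mutant 1 and 0 counts in mutants 2 and 3, against 85, 112 and 68 counts in controls 1, 2 and 3. A count of 0 allows up to 0.0403 CPM in mutant 2 and 0.0391 CPM in mutant 3 at 3 counts, where controls had 0.858 to 1.44 CPM. Over all 3 mutants the log2 fold change was -1.82 ± 1.73 (adjusted p = 0.513 by edgeR). Over all 31771 genes, 2 genes had 0 counts in mutants 2 and 3 and at least 20 counts in each other library, and the other one was Gm9899 on chromosome 5, with 485 counts in mutant 1 and 37, 23 and 45 counts in the controls. Only 32.4% of the 50-base words of Hist1h2al are found in no other gene's transcripts. Both genes were picked after their values were seen.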
